A study of Homo sapiens with 3 samples.

Results

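The ribociclib-resistant lineage of CAMA-1 spheroids was compared between coculture with the ribociclib-sensitive lineage and growth on its own. Its cells were those that the deposited annotation classes as resistant, which in both libraries are cells with a UMI of the mCherry transgene and none of mVenus. They were 6292 cells from the coculture and 5507 from the resistant monoculture, 11799 of the 19237 annotated cells. A further 2050 annotated cells of the resistant monoculture carried no transgene UMI and were not among them. CAMA-1 is an established human cell line of estrogen receptor-positive breast cancer. Spheroids were started from 2000 cells, with 50% sensitive cells in the coculture and 0% in the resistant monoculture, and all were harvested after 11 days with 1 µM ribociclib and DMSO, viably frozen and thawed for droplet capture with 10x Genomics 3′ chemistry. The sensitive lineage carried mVenus, and the resistant lineage had been selected by long exposure of the same line to the drug. No untreated library was analysed here. There was 1 library per condition, so culture and library cannot be told apart, no test across samples was run, no p-value is given, and intervals cover counting error only.

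Ribociclib blocks CDK4 and CDK6, the kinases that act with D-type cyclins to inactivate RB and open the way from G1 into S phase. Luminal breast cancer cells of this kind depend on the estrogen receptor, which raises cyclin D1 among its targets, and resistant cells keep dividing while the drug is present. Cells in a mixed spheroid share medium and touch each other, so secreted proteins, metabolites and contact signals of one lineage can reach the other.

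The resistant cells held 199632131 UMIs on named genes in coculture and 204207109 in monoculture, with medians of 30686.5 and 36857 UMIs per cell, 4725 and 5060 genes per cell, and 15.2% and 15.02% mitochondrial UMIs. mCherry was counted at 83.7 and 71.5 CPM (UMIs of a gene for every 1000000 UMIs of the population). mVenus had 0 UMIs in both, by the choice of cells. Luminal markers were present in both, with KRT8 at 1683 and 2030 CPM, KRT18 at 2646 and 3557 CPM and GATA3, a luminal transcription factor, at 406 and 350 CPM. Of 18 markers of fibroblasts, endothelium, immune and basal cells found in the files, 0 reached a mean of 5 CPM, the highest stood at 2.98 CPM, and their summed level was 7.77 CPM in coculture and 4.47 CPM in monoculture. The libraries shared 9 cell barcodes.

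The difference between cocultured and monocultured resistant cells was small for most genes. UMIs were summed over cells, and a log2 ratio is that of coculture CPM over monoculture CPM after adding 1 CPM to each. Over the 8533 genes that averaged 5 CPM or more the middle 95% of log2 ratios ran from -0.33 to 0.46, with a median of 0.01 and a root mean square of 0.21. A log2 ratio of 0.32 in either direction, the threshold used here, was passed by 679 genes higher in coculture (7.96%) and by 232 lower (2.72%), 10.7% in all. A 1.5-fold difference was passed by 66 higher (0.773%) and 4 lower (0.0469%). Of these 911 genes, 74.5% were thus higher in coculture, a split that depends on the scaling, since TMM factors gave 477 higher and 443 lower (51.8% higher) and median-of-ratios factors 525 and 385 (57.7% higher).

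The differences recurred across the cell cycle and across cell states. Of the 911 genes, 910 had the same direction in G1, S and G2M cells taken one phase at a time, and 882 in all 6 of the annotation's clusters with at least 100 resistant cells from each library. These subsets come from the same libraries and sum to the totals, so they are not replicates. They show that the ratios were not carried by a single phase or cluster. The genes furthest from a log2 ratio of 0 were FABP7 and PEG10 at low levels and MUCL1, CLU and NMT1 at higher ones, as the plot of log2 ratio against level shows.

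**Figure D1:**
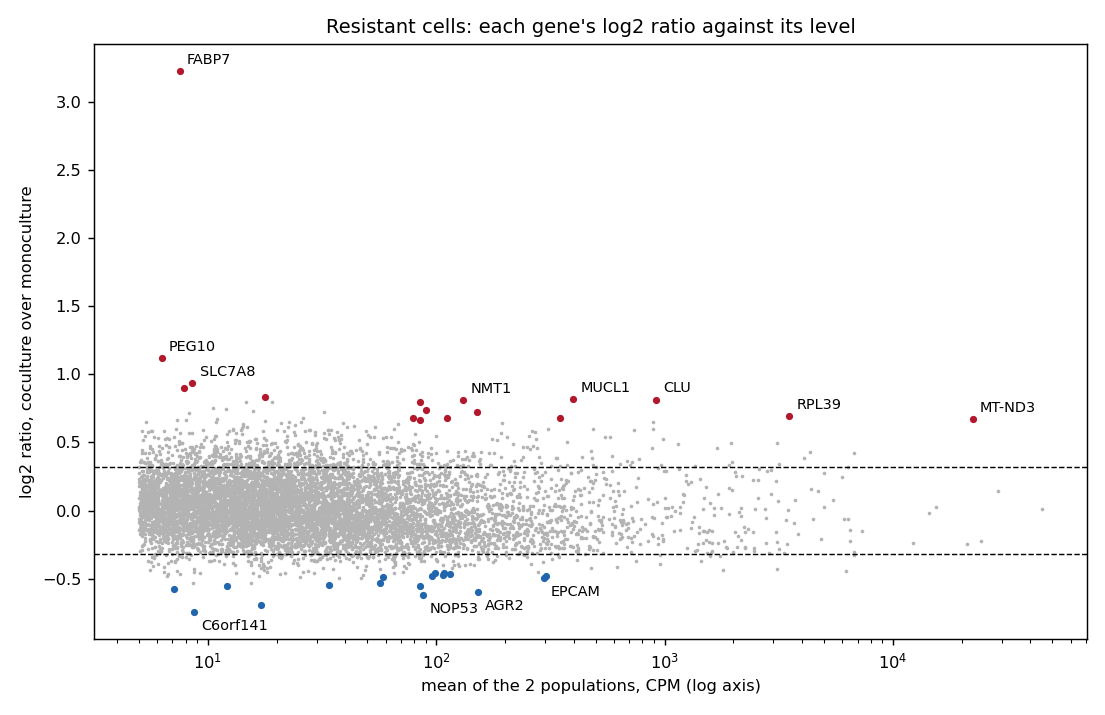
Log2 ratio of resistant cells, coculture over monoculture (vertical axis), against the mean level in CPM (log axis) for the 8533 genes tested, 1 point per gene. Red and blue points are the genes named as highest and lowest, and dashed lines mark the threshold of 0.32. FABP7 lies alone at 3.22, and the other genes tested lie between -0.74 and 1.12.

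Among secreted products, MUCL1 and CLU were higher in coculture and AGR2 and TFF3 were lower. MUCL1, a small mucin-like protein made by mammary and sweat glands (chromosome 12, 55224302 to 55289792, GRCh37), was counted at 509 CPM (interval 506 to 512) in coculture and 288 CPM (285 to 290) in monoculture, a log2 ratio of 0.82. CLU, which encodes the secreted chaperone clusterin, was counted at 1166 CPM (1162 to 1171) and 663 CPM (660 to 667), a log2 ratio of 0.81. After each cell was thinned to 5000 UMIs, a MUCL1 UMI remained in 54.96% of cocultured and 34.85% of monocultured resistant cells, and a CLU UMI in 94.3% and 84.8%. At a fixed depth this share follows the level, so it does not show that more cells expressed the gene. Without thinning, a MUCL1 UMI was found in 95.6% of cocultured and 79.7% of monocultured cells, and a CLU UMI in 99.98% and 99.67%. These shares follow the level and the depth too, and the part of sensitive-cell RNA in them was not tested. AGR2, a protein disulfide isomerase of the secretory pathway, ran the other way at 121 and 183 CPM (log2 ratio -0.60). TFF3, a trefoil peptide induced by estrogen, was at 360 and 464 CPM (-0.36). Of 20 tested genes of the list of secreted and mammary products, these 4 were the ones past the threshold. That is 10% higher and 10% lower, against 7.96% and 2.72% of all genes tested, and the list's median was 0.03 against 0.01.

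MUCL1 differed by more in some states than in others. Its level in G1 cells was 735 CPM in coculture and 378 CPM in monoculture (log2 ratio 0.96), against 332 and 224 CPM in S cells (0.57) and 291 and 208 CPM in G2M cells (0.48). By cluster its log2 ratio ran from 0.60 in cluster 1 to 1.55 in cluster 6. CLU was steadier, with 0.81, 0.83 and 0.76 in G1, S and G2M and 0.70 to 1.02 over clusters. NMT1 was steadier still, with cluster values from 0.79 to 0.88, and RPL39 from 0.68 to 0.70.

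**Figure D2:**
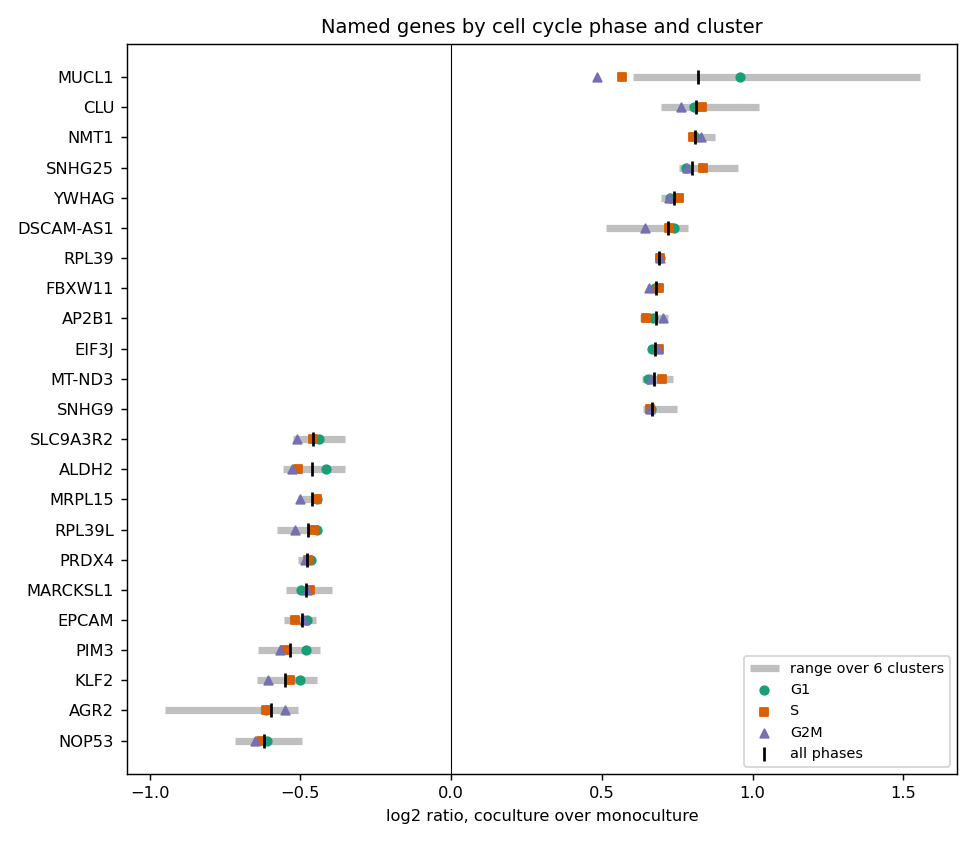
Log2 ratio of resistant cells, coculture over monoculture (horizontal axis), for the 12 highest and 11 of the 12 lowest genes that averaged 50 CPM or more. Coloured symbols are G1, S and G2M cells, black ticks all phases together, and grey bars the range over the 6 clusters with at least 100 cells from each library. Every symbol of the upper 12 genes lies above 0 and every symbol of the lower 11 below it, with the widest bar for MUCL1.

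The other highest genes belong to no single list. NMT1, which attaches myristate to the N terminus of proteins, was at 168 CPM in coculture and 95.1 CPM in monoculture (log2 ratio 0.81). EIF3J, a subunit of the translation initiation factor eIF3, was at 428 and 267 CPM (0.68). CPEB4, which binds the 3′ ends of mRNAs and controls their translation, was at 23.0 and 12.4 CPM (0.84). In sensitive cells NMT1 was at 159 CPM in coculture and 76.9 CPM in monoculture, EIF3J at 417 and 214 CPM, and CPEB4 at 26.3 and 31.3 CPM, lower in coculture. The cocultured cells of both lineages come from 1 library, so these pairs are not independent of each other.

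YWHAG, the gamma form of the 14-3-3 proteins that bind phosphorylated partners, was at 113 CPM in coculture and 67.3 CPM in monoculture (log2 ratio 0.74). FBXW11, an F-box protein that brings phosphorylated substrates to a ubiquitin ligase, was at 98.2 and 60.9 CPM (0.68), and AP2B1, a subunit of the clathrin adaptor AP-2, at 137 and 85.3 CPM (0.68). DSCAM-AS1, a long noncoding RNA of luminal breast cancer cells, was at 188 and 114 CPM (0.72), with 429 CPM in cocultured and 335 CPM in monocultured sensitive cells. In resistant cells the levels of these genes in coculture were above those in monoculture in every phase and in each of the 6 clusters. YWHAG was at 136 CPM in cocultured and 111 CPM in monocultured sensitive cells, FBXW11 at 81.7 and 58.6 CPM, and AP2B1 at 140 and 78.8 CPM. These genes were thus higher in coculture in both lineages, whose cocultured cells come from the same library.

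Among genes with a mean of 5 to 50 CPM, FABP7, PEG10, SLC7A8 and LIMCH1 were the highest, all of them genes with higher levels in the sensitive lineage. FABP7, a fatty acid-binding protein (chromosome 6, 123100861 to 123105219), was at 14.4 CPM (13.91 to 14.97) in cocultured and 0.651 CPM (0.545 to 0.772) in monocultured resistant cells, and at 289 and 1458 CPM in cocultured and monocultured sensitive cells. PEG10, an imprinted gene derived from a retrotransposon, was at 8.98 and 3.59 CPM in resistant cells (log2 ratio 1.12), and at 56.1 CPM in cocultured and 12.1 CPM in monocultured sensitive cells. SLC7A8, a transporter of neutral amino acids, was at 11.6 and 5.55 CPM (0.94), and LIMCH1, an activator of non-muscle myosin, at 10.5 and 5.18 CPM (0.90). STC2, a secreted glycoprotein induced by estrogen and by amino acid stress, was at 32.5 and 19.96 CPM (0.68), with 44.1 and 162 CPM in cocultured and monocultured sensitive cells.

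**Figure D3:**
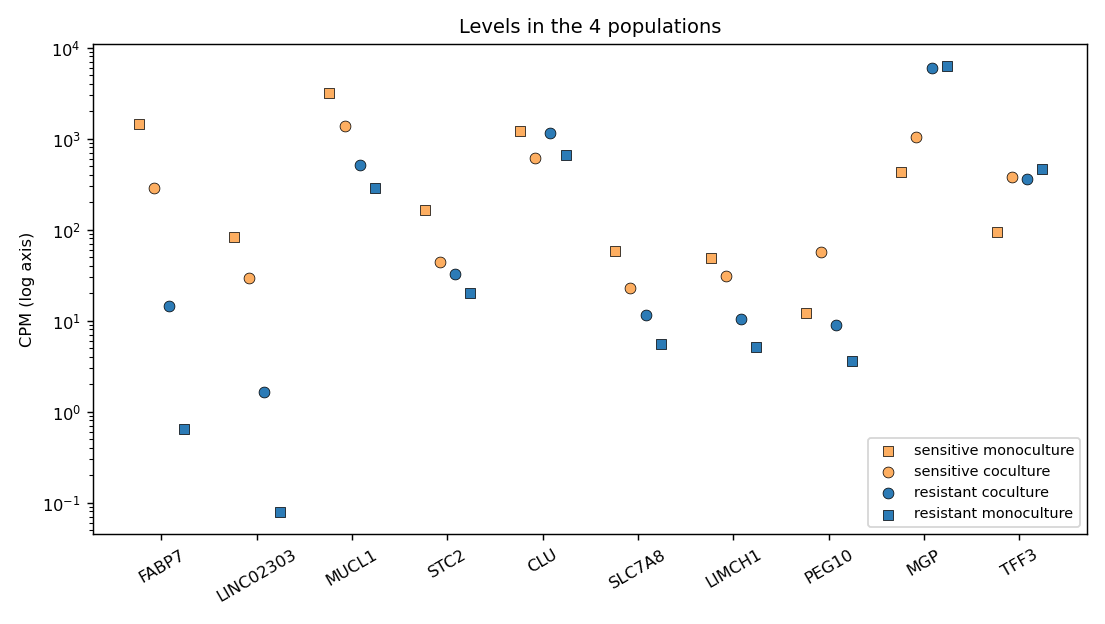
Level in CPM (log axis) of 10 genes in the 4 populations, 1 point per population: squares are monocultures, circles cocultures, orange sensitive and blue resistant cells. For FABP7, LINC02303, MUCL1, STC2, SLC7A8 and LIMCH1 the 4 levels descend from sensitive monoculture to resistant monoculture, whereas the level of CLU in cocultured resistant cells (1166 CPM) lies above that in cocultured sensitive cells (607 CPM).

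UMIs of FABP7, a gene of the sensitive-lineage list, were spread over many cocultured resistant cells. A FABP7 UMI was found in 1147 of the 6292 cocultured cells (18.2%, exact binomial interval 17.3% to 19.2%) and in 87 of the 5507 monocultured cells (1.58%, 1.27% to 1.95%). No sensitive cell was plated in the resistant monoculture, whose median depth was higher. Its highest count of FABP7 was 36 UMIs in 1 cell, and 86 UMIs in coculture. Most of the cocultured cells with the gene had few UMIs of it, and 86 cells had 5 or more, against 2 in monoculture. FABP7 and LINC02303, a noncoding RNA, were the genes of the sensitive-lineage list at least 16 times higher in sensitive than in resistant monoculture. Solved from their levels, a mixture of resistant monoculture RNA with cocultured sensitive-cell RNA would hold 4.78% and 5.26% of the latter.

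The other genes of the list stood on either side of such a mixture. With the median share of 5.02%, MUCL1 would stand at 342 CPM, where 509 CPM was measured, and STC2 at 21.2 CPM, where 32.5 CPM was measured. SPTSSB would stand at 44.99 CPM against a measured 50.5, and ANKRD37 at 27.8 against 36.4. The measured levels of SCIN, LXN, LURAP1L, S100A1 and ALDH2 were below those of the mixture, with SCIN, a gelsolin-family actin-severing protein, at 11.3 CPM against 12.8, LXN, a carboxypeptidase inhibitor, at 21.8 against 22.4, and ALDH2 at 82.9 against 112. LURAP1L was at 30.3 CPM against 31.8, and S100A1 at 61.7 against 62.1. CLU is not on the list, and was at 607 CPM in cocultured sensitive cells. The part of sensitive-cell RNA in the levels of MUCL1, STC2 and CLU was not tested. MUCL1 was at 479 CPM in the cocultured cells with a FABP7 UMI and at 516 CPM in the 5145 without one, CLU at 1096 and 1184 CPM, and PEG10 at 14.4 and 7.65 CPM. The cells with a FABP7 UMI were deeper, with a median of 33520 UMIs against 30166, and a cell without one can still hold RNA of sensitive cells.

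The annotation places a small number of cocultured resistant cells in clusters held mostly by sensitive cells. These 5 clusters, each at least 93.4% sensitive, held 146 cocultured resistant cells (2.32%) and 18 monocultured ones (0.327%). In the 146 cells FABP7 was at 165 CPM and MGP, a matrix protein abundant in the resistant lineage, at 1705 CPM, against 10.5 and 6095 CPM in the other 6146 cocultured cells. mCherry was at 52.7 and 84.5 CPM in the same sets of cells. They included 38 of the 86 cells with 5 or more FABP7 UMIs, and 37 of them had a doublet score above 0.25, against 231 of the 6146. Without these clusters, 682 genes were higher and 235 lower past the threshold, MUCL1 was at 500 CPM in coculture and 288 CPM in monoculture, and FABP7 was at 10.5 and 0.476 CPM.

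Of the lowest genes in coculture, NOP53, a factor of ribosome assembly, was at 68.6 CPM in coculture and 106 CPM in monoculture (log2 ratio -0.62). KLF2, a transcription factor, was at 69.0 and 102 CPM (-0.55), and PIM3, a serine/threonine kinase, at 46.2 and 67.2 CPM (-0.53). EPCAM, the epithelial cell adhesion molecule (chromosome 2, 47572297 to 47614740), was at 245 CPM (243 to 247) and 346 CPM (343 to 348), with a log2 ratio of -0.50 and cluster values from -0.55 to -0.45. After thinning, an EPCAM UMI remained in 69.2% of cocultured and 81.0% of monocultured cells. PRDX4, a peroxidase of the endoplasmic reticulum, was at 252 and 351 CPM (-0.48), MRPL15, a protein of the mitochondrial ribosome, at 96.4 and 133 CPM (-0.46), and ALDH2, the mitochondrial aldehyde dehydrogenase, at 82.9 and 114 CPM (-0.46). MARCKSL1, RPL39L and SLC9A3R2 were also among the 12 lowest, between -0.48 and -0.46.

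Below 50 CPM the lowest genes were C6orf141 at 6.22 and 11.1 CPM (log2 ratio -0.74), MAB21L4 at 12.9 and 21.4 CPM (-0.69), OLFM2 at 5.51 and 8.70 CPM (-0.57), ZSCAN16 at 9.65 and 14.6 CPM (-0.55) and AQP3, a channel for water and glycerol, at 27.5 and 40.5 CPM (-0.54). MAB21L4 and C6orf141 were also lower in the sensitive than in the resistant monoculture, at 7.08 and 1.15 CPM. Among the 17 genes named as lowest, the values of every cluster lay below 0.

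Of the gene lists, that of the TGFB and BMP pathway had the highest median. In this pathway ligands bind paired serine/threonine kinase receptors, which phosphorylate SMAD proteins that then act on genes such as those of the ID family. Of its 18 tested genes 6 were higher past the threshold (33.3%) and 0 lower, beside 7.96% and 2.72% of all genes, shares against which the counts of every list are to be read, 17 lay above 0, and the median log2 ratio was 0.27. Among receptors, BMPR2 was at 21.4 CPM in coculture and 15.9 CPM in monoculture (0.41), TGFBR1 at 11.6 and 8.56 CPM (0.40), and BMPR1A at 10.4 and 7.62 CPM (0.40). SMAD5, a transducer of BMP signals, was at 99.1 and 69.7 CPM (0.50). The targets ID1 and ID2 were at 382 and 292 CPM (0.39) and at 69.4 and 54.0 CPM (0.36). TGFB3, a ligand, was under the level tested, at 3.70 and 3.37 CPM. The median of the list lay between 0.17 and 0.32 under all the alternative settings, and was 0.27 after adjustment for transcript length and GC content. The 3 receptors were then short of the threshold, each at 0.27, and with a pseudocount of 10 CPM BMPR2 was at 0.28, TGFBR1 at 0.22 and BMPR1A at 0.21.

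Of 13 tested genes of the WNT and NOTCH pathways 5 were higher (38.5%) and 1 was lower (7.69%), against 7.96% and 2.72% of all genes, with a median of 0.13. TCF7L2, a transcription factor that acts with beta-catenin, was at 21.96 CPM in coculture and 13.55 CPM in monoculture (log2 ratio 0.66), CTNNB1, beta-catenin itself, at 39.99 and 30.38 CPM (0.39), and the receptor NOTCH2 at 45.5 and 31.3 CPM (0.52). HES1, a NOTCH target, was at 137 and 108 CPM (0.34), while NRARP, a feedback inhibitor of NOTCH, was the gene past the threshold in the other direction (-0.40). Of 19 adhesion and junction genes 6 were higher (31.6%) and 1, EPCAM, was lower (5.26%), with a median of 0.24 that was 0.11 after the adjustment for length and GC. ITGB1 and ITGA6, integrin subunits, were at 110 and 80.0 CPM (0.46) and at 9.62 and 6.97 CPM (0.41). PKP2, a desmosomal plakophilin, was at 7.34 and 4.78 CPM (0.53), and CDH1, which encodes E-cadherin, at 18.0 and 14.2 CPM (0.33).

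Luminal transcription factors were mostly higher in coculture, with genes past the threshold on both sides. Of 15 tested, 11 lay above 0, 3 were higher past the threshold (20%) and 2 lower (13.3%), against 7.96% and 2.72% of all genes, with a median of 0.22. TFAP2A was at 99.6 CPM in coculture and 73.6 CPM in monoculture (log2 ratio 0.43) and TBX3 at 26.9 and 20.9 CPM (0.35). The epithelial ETS factors EHF, at 4.59 and 6.57 CPM (-0.44), and ELF3, at 116 and 153 CPM (-0.40), were the lower genes. ESR1, the estrogen receptor, was at 17.3 CPM (16.7 to 17.9) and 14.1 CPM (13.6 to 14.6), a log2 ratio of 0.27 that did not pass the threshold. Of 29 tested estrogen-induced genes 3 were higher (STC2, DHRS2 and AREG) and 3 lower (AGR2, SUSD3 and TFF3), with a median of -0.02. The keratins had the lowest median of the lists, -0.23 over 7 genes, with KRT18 at -0.43 and KRT80 at 0.60 past the threshold.

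Enzymes of estradiol metabolism showed no common direction. Of 11 tested, 2 were higher (18.2%) and 1 lower (9.09%), against 7.96% and 2.72% of all genes, with a median of -0.02. CYP1B1, which hydroxylates estradiol, was at 34.0 CPM in coculture and 22.2 CPM in monoculture (log2 ratio 0.59), and STS, which frees steroids from their sulfates, at 6.72 and 4.19 CPM (0.57). HSD17B8, which oxidises estradiol to estrone, was at 35.2 and 44.98 CPM (-0.34), which was short of the threshold in G1 cells (-0.29), with a pseudocount of 10 CPM (-0.28) and after adjustment for length and GC (-0.22). HSD17B1, which makes estradiol from estrone, was at 38.1 and 36.5 CPM (0.06). CYP19A1, the aromatase, was at 0.010 CPM in coculture, that is 2 UMIs, and had 0 UMIs in monoculture, and no fold is given.

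Metabolic, folding and stress-defence lists had medians between -0.11 and 0.11, and their counts stand against 7.96% higher and 2.72% lower of all genes. Of 14 glycolysis enzymes 0 were higher and 1 was lower, LDHA, which reduces pyruvate to lactate, at 283 CPM in coculture and 362 CPM in monoculture (log2 ratio -0.35), and the median was -0.07 with 1 gene above 0. Of 30 genes of MYC and its targets 2 were higher, among them PA2G4, a regulator of growth, at 544 and 415 CPM (0.39), and 3 lower, among them NPM1, nucleophosmin of the nucleolus, at 1258 and 1623 CPM (-0.37). The cholesterol and fatty acid list had 2 higher and 2 lower of 29, hypoxia-inducible genes 2 and 1 of 19, endoplasmic reticulum folding 1 and 0 of 20, heat shock chaperones 1 and 1 of 14, oxidative stress genes 1 and 1 of 22 and metallothioneins 1 and 0 of 5. Of 25 lysosome genes 2 were higher and 0 lower, ATP6V1A, a subunit of the proton pump, at 38.6 and 25.7 CPM (0.57) and PSAP, the precursor of the saposins, at 114 and 89.0 CPM (0.35). MT2A, the most abundant metallothionein here, was at 494 and 376 CPM (0.39), but at 259 and 229 CPM in G1 cells (0.18).

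Immune and growth factor lists held 18 tested genes or fewer each, so that 1 gene moves their shares well away from the 7.96% higher and 2.72% lower of all genes. Of 18 interferon-stimulated genes 1 was higher and 2 were lower, with IFI35 at 18.2 CPM in coculture and 25.3 CPM in monoculture (log2 ratio -0.46). The NF-kB and inflammatory list had 0 higher and 1 lower of 10, the MAPK feedback genes 1 and 0 of 7, and receptor kinases and their ligands 1 and 0 of 12, the higher gene being AREG, an EGFR ligand, at 7.98 and 5.22 CPM (0.53). Of 20 histone genes 4 were higher and 0 lower, led by HIST1H4H at 13.4 and 8.21 CPM (0.65). The list of CDK4/6, cyclins, inhibitors and the RB family had 2 higher and 1 lower of 17, and the mitochondrially encoded genes 3 and 1 of 13. The lists of genes that mark the lineages, taken from earlier results of these libraries, had 4 higher and 1 lower of 10 for the sensitive and 2 and 1 of 5 for the resistant lineage.

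**Figure D4:**
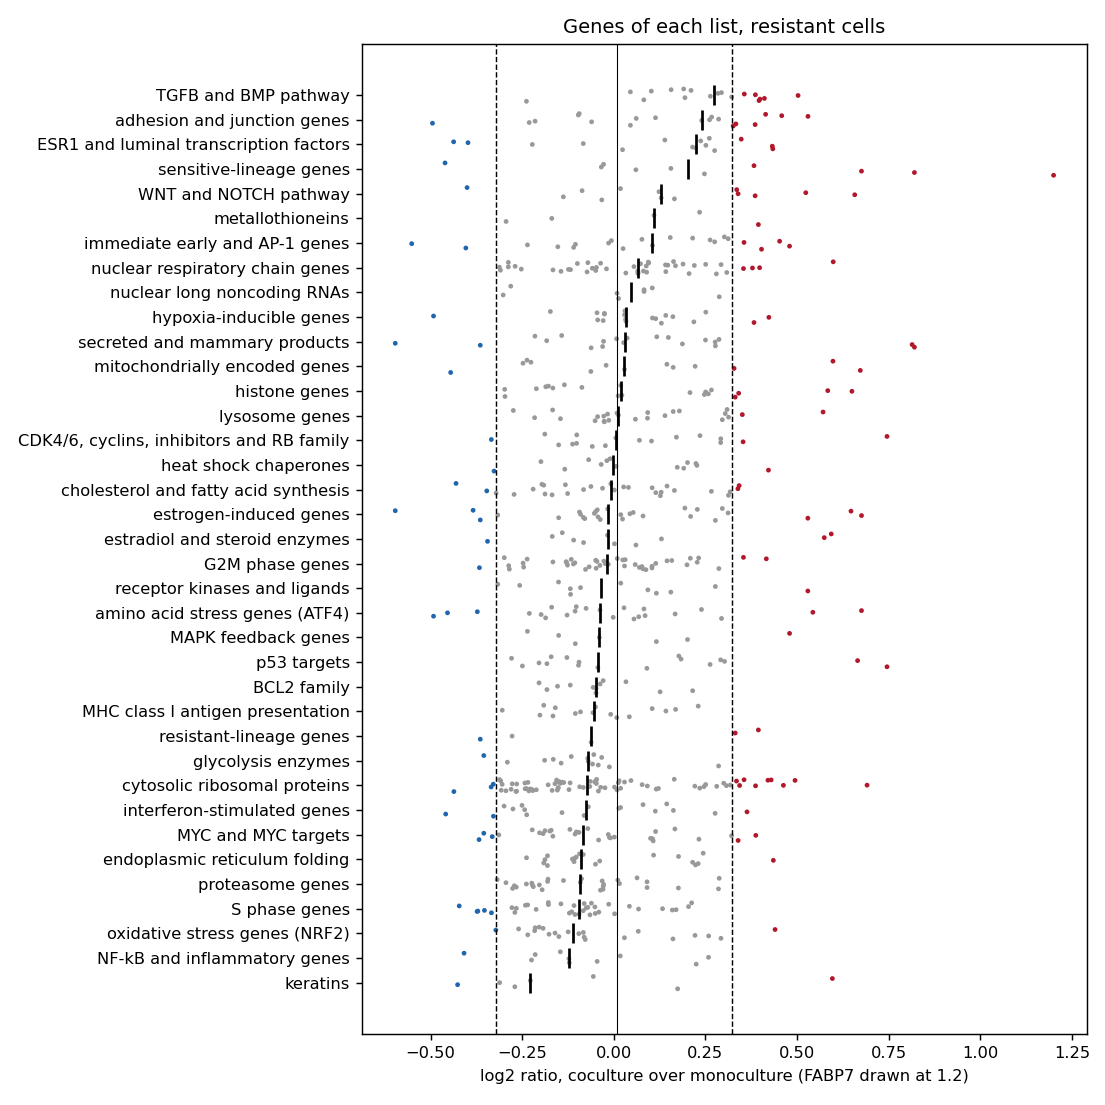
Log2 ratio of resistant cells, coculture over monoculture (horizontal axis), for the tested genes of each list with at least 5 of them. Each point is a gene, red or blue where it is past the threshold (dashed lines), black ticks are list medians, and the solid line is the median of all 8533 genes. The TGFB and BMP list has the highest median (0.27) and the keratins the lowest (-0.23).

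Stress and early-response genes lay on both sides, again to be read against 7.96% higher and 2.72% lower of all genes. Of 21 immediate early and AP-1 genes 4 were higher, among them EGR1 at 20.5 CPM in coculture and 14.4 CPM in monoculture (log2 ratio 0.48) and FOS at 98.6 and 74.4 CPM (0.40), and 2 were lower, KLF2 and JUN, the latter at 62.0 and 82.3 CPM (-0.40). Of 23 amino acid stress genes 2 were higher and 3 lower, with SLC38A2, an amino acid transporter, at 71.6 and 48.8 CPM (0.54) and DDIT4, an inhibitor of mTORC1, at 38.8 and 54.9 CPM (-0.49). Of 17 p53 targets 2 were higher and 0 lower: CDKN1A, the CDK inhibitor p21, was at 15.2 and 8.69 CPM (0.75), and ZMAT3, an RNA-binding zinc finger protein, at 10.0 and 5.97 CPM (0.67). The MHC class I genes (16 tested), the BCL2 family (12), the proteasome (29) and the nuclear noncoding RNAs (8) had 0 genes past the threshold in either direction. HSPA1A (-0.33) and HSPA1B (0.42) lie next to each other and are nearly identical. Reads that fit both genes cannot be told apart, so the opposite values are uncertain.

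Transcript length was related to the ratios over all genes. Lengths and GC contents were those of the GENCODE 44 canonical transcript, known for 8518 genes. For mitochondrially encoded genes this length is the annotated span of the gene, such as 207 bases for MT-ATP8, and can differ from that of the RNA. Their place among short transcripts and their adjusted values rest on that span. Of the 23 tested genes with a transcript under 400 bases, 19 were higher past the threshold (82.6%) and 0 lower, with a median log2 ratio of 0.59. At 800 to 1600 bases 2.85% were higher and 7.33% lower, with a median of -0.13, and at 6400 bases or more 13.9% and 0.475%, with a median of 0.12. Genes under 40% GC had a median of 0.10 and those of 60% or more a median of -0.09. The Spearman correlation across genes was 0.38 with length and -0.30 with GC content, which are themselves correlated (-0.34), and a joint fit took up 18.6% of the variance of the ratios. Genes are not independent replicates, and the same 2 libraries lie behind every point.

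**Figure D5:**
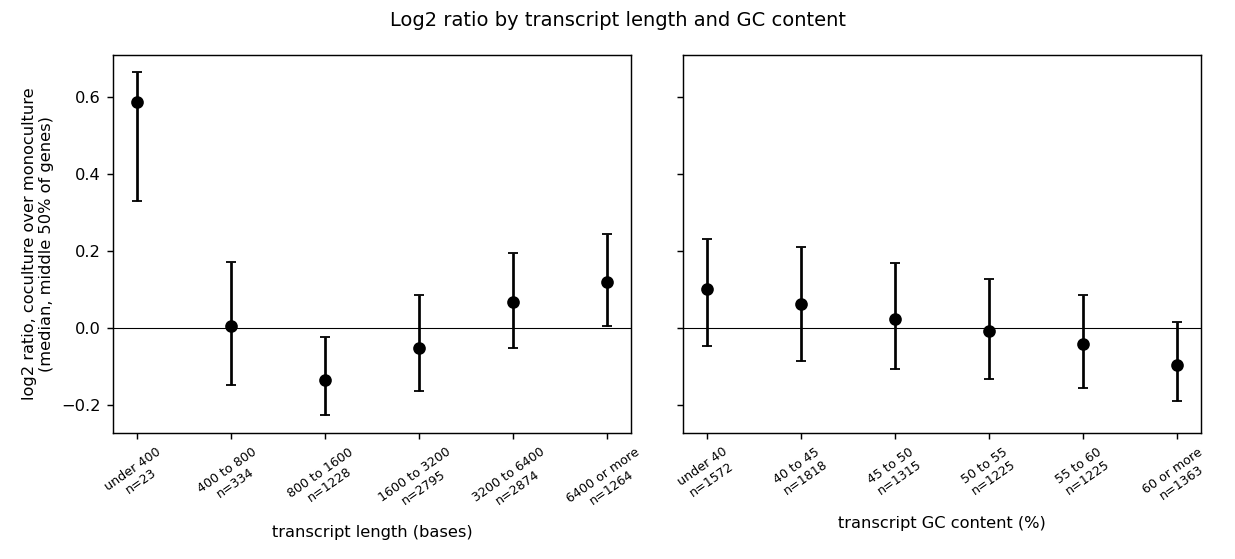
Median log2 ratio of resistant cells, coculture over monoculture (points), and the middle 50% of genes (bars) by transcript length (left) and GC content (right), with the number of genes under each bin. The median is 0.59 for transcripts under 400 bases, -0.13 at 800 to 1600 bases and 0.12 from 6400 bases, and it declines from 0.10 to -0.09 with GC content.

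The 679 higher genes had a median transcript length of 4336 bases and a median GC content of 43.2%, the 231 lower genes with a transcript 1729 bases and 54.2%, and all genes 3121 bases and 48.0%. The most A-rich stretch of 20 bases held a median of 15 A in the higher, 13 in the lower and 14 in all genes. The capture chemistry primes on runs of A. With the ratio adjusted for length and GC, 533 genes were higher and 186 lower past the threshold, and MUCL1, CLU, NMT1 and EPCAM were still among them. Of the genes given here, TFF3 (-0.27), KRT18 (-0.30), NPM1 (-0.31), SLC9A3R2 (-0.31), HSPA1A (-0.24), BMPR2 (0.27), ATP5ME (0.29), MT2A (0.26) and RB1 (0.25) were then short of the threshold, as was HSD17B8, and MT-ATP8 was at -0.089. The same held for BMPR1A, CDH1, ITGA6, NDUFB1, PCNA, RPS21 (0.12), RPS27 (0.18), RPS29 (-0.010), SUSD3, TBX3 and TGFBR1. The part of length, GC content or library preparation in the individual ratios was not tested.

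The shortest transcripts, by annotated length, come from unrelated families. Genes of small ribosomal proteins were among them, with RPL39 at 4332 CPM in coculture and 2683 CPM in monoculture (log2 ratio 0.69), RPS27 at 7750 and 5791 CPM (0.42), RPS29 at 806 and 630 CPM (0.36) and RPS21 at 2132 and 1690 CPM (0.33). Small subunits of the respiratory chain were others: MT-ND3 was at 27457 and 17227 CPM (0.67), MT-ATP8 at 371 and 245 CPM (0.60), ATP5ME at 1077 and 711 CPM (0.60) and NDUFB1 at 315 and 209 CPM (0.59). The hosts of small nucleolar RNAs SNHG25 and SNHG9 were at 108 and 61.5 CPM (0.80) and at 105 and 65.6 CPM (0.67). In sensitive cells, cocultured over monocultured, the median log2 ratio of the 23 genes was 0.88, which uses the same coculture library. The rest of the relation to length differed there, with medians of -0.03 at 800 to 1600 bases, -0.04 at 3200 to 6400 and -0.08 from 6400 bases. For GC content the sensitive medians were -0.08 under 40% and -0.003 at 60% or more, opposite in order to those of resistant cells. RPL39, for example, was at 3967 CPM in cocultured and 1911 CPM in monocultured sensitive cells. Genes of the same complexes with longer transcripts lay on both sides in resistant cells. RPS26 was at 2281 and 1619 CPM (0.49) and UQCR11, of complex III, at 671 and 509 CPM (0.40), whereas RPL3 was at 1540 and 2084 CPM (-0.44) and MT-ND1 at 5256 and 7157 CPM (-0.45). Over 76 cytosolic ribosomal proteins the median was -0.07, with 9 higher and 3 lower, and over 45 nuclear respiratory chain genes 0.07, with 4 higher and 0 lower.

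RPL39 and its retrocopy-derived paralog RPL39L had opposite ratios, with nearly equal coding sequences. RPL39 (chromosome X, 118920467 to 118925593, minus strand) has a transcript of 388 bases, and RPL39L (chromosome 3, 186838736 to 186898696, minus strand) one of 724 bases. RPL39L was at 89.4 CPM in coculture and 124 CPM in monoculture (log2 ratio -0.47), opposite to RPL39 (0.69). It was low for its length, since the genes of 400 to 800 bases had a median of 0.01, with 8.68% higher and 2.40% lower. Both spliced coding sequences, from GENCODE 44 on GRCh37, have 156 bases and differ at 8 of them (94.9% identical), given here with the differing bases in capitals. The coding sequence of ATP5ME, a subunit of ATP synthase, follows as that of another short transcript, with no capitals since nothing is aligned to it.
RPL39: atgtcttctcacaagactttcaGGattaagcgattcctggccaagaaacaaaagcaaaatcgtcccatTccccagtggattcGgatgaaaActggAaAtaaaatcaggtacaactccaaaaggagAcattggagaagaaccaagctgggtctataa
RPL39L: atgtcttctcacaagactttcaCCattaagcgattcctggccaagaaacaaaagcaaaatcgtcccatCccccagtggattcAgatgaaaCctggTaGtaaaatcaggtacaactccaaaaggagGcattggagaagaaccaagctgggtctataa
ATP5ME: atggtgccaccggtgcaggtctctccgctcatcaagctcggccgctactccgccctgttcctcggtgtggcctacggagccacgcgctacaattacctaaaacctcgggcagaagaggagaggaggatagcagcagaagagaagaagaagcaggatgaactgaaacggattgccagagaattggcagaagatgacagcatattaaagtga
Reads from the shared stretches of RPL39 and RPL39L fit both genes, so a part of each count is uncertain.

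Promoters were searched for 9 short motifs in windows of 250 bases before to 50 bases after the start of the gene (RefSeq, GRCh38.p14), which 7105 of the 8533 tested genes had. Both strands were read and no motif contains another. The hypoxia response core ACGTG was present for 29.2% of the genes higher past the threshold, 29.5% of the lower and 28.6% of all tested genes. The CCAAT box CCAAT was present for 36.04%, 40.41% and 38.09%, the cell cycle homology region TTTGAA for 10.6%, 11.4% and 9.44%, the metal response core TGCGCNC for 29.7%, 33.7% and 32.9%, and the AP-1 site TGANTCA for 3.78%, 4.66% and 3.84%. The interferon response motif was present for 1.44%, 3.11% and 2.36%, and the sterol response motif TCACNCCAC for 1.26%, 3.11% and 1.11%, the lower genes in both cases being 6 of 193. The amino acid response motif ATTGCATCA was present for 1 higher and 1 lower gene and for 8 of the 7105 tested genes. The full estrogen response palindrome was present for 0 of either and for 1 of the 7105. In the 27305 promoters of the reference the shares ran from 0.0659% for the estrogen response palindrome to 35.7% for CCAAT.

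The share of cycling cells depended on which monocultured cells were counted. By the annotation's phases 50.3% (exact binomial interval 49.1% to 51.6%) of cocultured and 53.6% (52.2% to 54.9%) of monocultured resistant cells were in S or G2M. In S phase were 25.9% (24.8% to 27.0%) and 29.98% (28.8% to 31.2%), and in G2M 24.5% (23.4% to 25.6%) and 23.6% (22.5% to 24.7%). Phase calls made anew on cells thinned to 5000 UMIs put 38.7% and 42.7% in S or G2M. The transgene rule bears on this comparison, since it sets aside monocultured cells with no mCherry UMI. With those cells included the monoculture share was 50.0%, within the interval of the coculture share, but the coculture annotation holds no cell without a transgene UMI to match them. The intervals are over the cells of 1 library each and do not cover differences between libraries.

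Most genes of the cycle did not pass the threshold, but S phase genes passed it downwards more often than all genes. The phases called anew were scored from the same S phase and G2M lists, so these ratios and the shares of cycling cells are not separate evidence. Of 37 tested S phase genes 0 were higher and 5 lower (13.5%) past the threshold, against 7.96% and 2.72% of all genes, with a median of -0.10. GINS2, of the replicative helicase, was at 48.8 CPM in coculture and 63.5 CPM in monoculture (log2 ratio -0.37), and PCNA, the sliding clamp of DNA polymerase, at 74.2 and 93.8 CPM (-0.33). In S cells alone the list's median was -0.03. Of 44 G2M genes 2 were higher (4.55%) and 1 lower (2.27%), with a median of -0.02. Among the drug's targets and their partners, CDK4 was at 109 and 113 CPM (-0.06), CCND1, cyclin D1, at 1534 and 1703 CPM (-0.15), and CDK6 at 0.085 and 0.064 CPM, too few UMIs to compare. RB1 was at 21.1 and 16.3 CPM (0.35), which passed the threshold but not with TMM factors (0.31). The largest ratio of the list of CDK4/6, cyclins, inhibitors and the RB family was that of CDKN1A (0.75), given above with the p53 targets.

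Resistant cells occupied the clusters in like proportions in both cultures. Cluster 0 held 40.3% of cocultured and 39.7% of monocultured cells, cluster 1 16.3% and 18.3%, cluster 2 15.97% and 15.18%, cluster 5 11.4% and 12.5%, and cluster 6 8.06% and 9.15%. Within cluster 0, where most cells are in G1, 16.3% of cocultured and 21.3% of monocultured cells were called S or G2M. The cluster with the most uneven use apart from those of the sensitive lineage was cluster 11, with 89 cocultured cells (1.41%, 1.14% to 1.74%) and 25 monocultured ones (0.454%, 0.294% to 0.669%).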

How the data were processed

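Single-cell RNA of 3 CAMA-1 libraries was sequenced, and the 2 that hold resistant cells were compared, with the sensitive monoculture for side-by-side levels. The authors aligned reads to GRCh37 with Cell Ranger 3.0.2 and deposited the raw UMI counts of each gene in each barcode. Their deposited cell table gives UMI and gene counts, the S and G2M score, the mitochondrial percent, phase, cluster and transgene class. A further 8 of its columns were not used. Rows that name no gene, with 0.523% to 0.591% of UMIs, were dropped.

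UMIs were summed per population and expressed as CPM. Log2 ratios used a pseudocount of 1 CPM, which understates low genes, and a mean of at least 5 CPM. Intervals are exact Poisson or Clopper-Pearson at 95%, and a count of 0 has a limit of 3 counts. For scaling alone, TMM factors were computed in edgeR 4.0.16 (R 4.3.3). The study's methods state that doublets called by scrublet at a score of 0.25 had been taken out before clustering. They also state that cells needed 2 or more transgene UMIs, which 62.5% of cocultured and 62.6% of monocultured resistant cells had. The resistant monoculture had 7557 annotated cells and the same number of barcodes within the stated quality limits, so neither filter is visible there. Doublet scores given here were computed anew by scrublet (scanpy 1.11.5) and removed no further cell, except in the alternative named for them. Other steps used Python 3.11.15, numpy 2.4.6, scipy 1.17.1 and pandas 2.3.3.

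Named genes were the 12 highest and 12 lowest with a mean of at least 50 CPM, the 5 highest and 5 lowest at 5 to 50 CPM, the 2 of each of 38 lists with the largest absolute ratio, and 8 listed by name (ESR1, CYP19A1, HSD17B1, HSD17B8, CDK4, CDK6, CCND1 and TGFB3). A few genes that this rule names are not reported here. Other list members are named as examples, chosen after their values were seen. The members and lists were chosen with earlier results of these data known, and the sensitive- and resistant-lineage lists were taken from such results. Alternatives changed the pseudocount, scaling, filters on genes and cells, weighting and depth. Leaving out cells with a FABP7 UMI, leaving out clusters of mostly sensitive cells and adjusting for length and GC were added after the data were seen.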

Additional observations from a re-analysis of the deposited data

How the results depend on the processing

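With 1 library per condition no library could be left out. No paired analysis was possible because each condition has 1 sample and no result comes from a test. The 679 genes higher and 232 lower past the threshold became 254 and 83 with a pseudocount of 10 CPM. Of the 2286 genes of at least 50 CPM, 174 were higher (7.61%) and 98 lower (4.29%), against 7.96% and 2.72% in the main setting. The lower genes numbered 443 with TMM factors, 385 with median-of-ratios factors and 362 after thinning to 5000 UMIs. Of 104 named genes 83 were past the threshold, 81 of these kept their direction under every setting that gave a value and 52 also stayed past the fold. The exceptions in direction were FABP7, -0.72 after subtracting the estimated sensitive-cell RNA, which that gene itself had set, and MT-ATP8, -0.089 after adjustment for annotated length and GC. Of 37 list medians 14 kept their sign under every setting, among them those of the TGFB and BMP, WNT and NOTCH, adhesion, luminal factor, keratin, S phase, ribosomal and nuclear respiratory lists, while that of the sensitive-lineage list ran from -0.025 to 0.24. Calls of genes given in the text were lost with a pseudocount of 10 CPM for ANKRD37, AREG, BMPR1A, BMPR2, CDH1, CTNNB1, EGR1, EHF, HES1, HSD17B8, HSPA1A, HSPA1B, ID2, ITGA6, NRARP, OLFM2, PCNA, PKP2, RB1, STS, TBX3 and TGFBR1. With TMM and with median-of-ratios factors they were lost for CDH1, HES1, PSAP, RB1, RPS21 and TBX3, and with TMM also for ID2 and RPS29. After thinning they were lost for CDH1, ITGA6, PSAP (0.27), SUSD3, TBX3 and TGFBR1, and with all annotated resistant cells for EHF, GINS2, JUN, PCNA and PSAP. They were lost with clusters weighted equally for CDH1, GINS2, HSPA1A and PCNA, with phases weighted equally for CDH1, GINS2, HES1 and PCNA, and with the mean of per-cell CPM for CDH1 and HSPA1A. In G1 cells they were lost for ANKRD37, CDH1, ELF3, HSD17B8, HSPA1A, MT2A, PCNA and RPS21, in cells with at least 2 mCherry UMIs for ANKRD37, CDH1 and TBX3, and in cells under 15% mitochondrial UMIs for TBX3 and TFF3. CDH1 was also short of the threshold without cells with a FABP7 UMI, without clusters of mostly sensitive cells and without high doublet scores, and TBX3 after the correction for sensitive-cell RNA. The share in S or G2M was 38.7% in coculture and 42.7% in monoculture by phases called anew at 5000 UMIs, 53.6% and 56.6% in cells with at least 2 mCherry UMIs, 49.0% and 52.4% without doublet scores above 0.25, and 50.3% and 50.0% in all annotated resistant cells. The cause was not tested, apart from fewer genes or cells entering under a stricter filter. Depth limits the genes under 5 CPM, and counting intervals leave out differences between libraries.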
